A study of Mus musculus with 10 samples.

Results

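Genes of lipid-associated macrophages were followed in mouse liver after 8 weeks of diet. The 10 genes were Gpnmb, Mmp12, Trem2, Spp1, Cd9, Cd63, Lgals3, Atp6v0d2, Itgax and Cd68. They were listed by name, with earlier results of these data known, and all probes annotated to them were taken. Of the 10 genes, 8 had a named probe, with 14 probes among the 45281 on the array. Spp1 and Cd68 had none and were not analysed here. The WD SW group consisted of 5 mice fed a high fat Western diet with drinking water containing fructose and glucose, and the CD group of 5 mice fed a chow diet with normal water. Both groups carried the same isogenic background, a strain bred from 129S1/SvImJ and C57Bl/6J, and the methods on the diets describe male mice, 8 to 12 weeks of age. Total RNA of whole liver was hybridised to 1 Illumina bead array per mouse, and each probe gave a fluorescence signal.

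Lipid-associated macrophages are macrophages that take up lipid from dying or lipid-laden cells and turn on a shared set of genes for lipid sensing, lysosomal digestion and matrix remodeling. In fatty liver they are known from single-cell studies as cells that surround steatotic hepatocytes and that partly replace resident Kupffer cells. TREM2, a receptor for lipids and apolipoproteins, signals through the adaptor TYROBP, while GPNMB, CD63, CD68 and the V-ATPase subunit ATP6V0D2 are proteins of the endosomal and lysosomal system. In RNA of whole liver, a change in the number of such cells and a change of RNA per cell cannot be told apart.

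The sequences before the annotated starts are shown for the genes that the results turn on, the 3 that were called higher together (Gpnmb, Mmp12 and Lgals3) and Trem2, which was above background only in WD SW livers. Each is the 250 bases before a start in RefSeq on GRCm38.p6, written 5′ to 3′ on the strand of the gene, with Mmp12 given for both of its annotated starts. Capitals mark matches to 5 motifs, searched on both strands and spelled out after the sequences.
Gpnmb, chr6:49036268-49036517, + strand: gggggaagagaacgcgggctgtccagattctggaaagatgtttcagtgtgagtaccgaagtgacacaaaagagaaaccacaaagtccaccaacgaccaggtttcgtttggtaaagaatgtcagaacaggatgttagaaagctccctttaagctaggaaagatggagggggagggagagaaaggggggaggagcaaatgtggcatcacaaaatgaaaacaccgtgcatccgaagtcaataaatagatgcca
Mmp12 first start, chr9:7344147-7344396, + strand: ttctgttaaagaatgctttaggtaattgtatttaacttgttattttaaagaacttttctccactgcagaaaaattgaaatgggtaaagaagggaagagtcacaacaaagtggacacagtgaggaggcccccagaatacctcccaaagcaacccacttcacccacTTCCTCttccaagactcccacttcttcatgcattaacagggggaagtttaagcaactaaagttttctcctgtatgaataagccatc
Mmp12 second start, chr9:7347124-7347373, + strand: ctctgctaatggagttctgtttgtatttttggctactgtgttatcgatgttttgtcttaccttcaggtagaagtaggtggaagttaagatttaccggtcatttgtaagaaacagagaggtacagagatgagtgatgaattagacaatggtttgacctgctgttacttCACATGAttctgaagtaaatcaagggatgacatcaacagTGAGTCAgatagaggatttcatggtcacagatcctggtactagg
Lgals3, chr14:47373610-47373859, + strand: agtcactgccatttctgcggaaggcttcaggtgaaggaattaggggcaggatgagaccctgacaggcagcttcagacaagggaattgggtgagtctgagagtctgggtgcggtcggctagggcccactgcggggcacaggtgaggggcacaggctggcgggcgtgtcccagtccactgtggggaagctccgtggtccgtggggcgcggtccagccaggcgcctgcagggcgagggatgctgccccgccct
Trem2, chr17:48346151-48346400, + strand: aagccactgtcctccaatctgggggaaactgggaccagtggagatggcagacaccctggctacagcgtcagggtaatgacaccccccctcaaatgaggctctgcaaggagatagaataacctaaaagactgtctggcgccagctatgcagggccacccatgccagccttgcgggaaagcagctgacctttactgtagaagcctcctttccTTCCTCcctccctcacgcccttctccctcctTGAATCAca
The motifs were the AP-1 motif TGANTCA, which 6.75% of 32851 promoters of the same length held. The M-box TCATGTG of the MITF and TFE factors was found in 3.25% of them. The PU.1 type motif GAGGAA occurred in 23.3%, the most of the 5. The E-box CACGTG was present in 6.02%. The TATA box, searched as TATAAA, was present in 12.4%. Positions are counted back from the start, with -1 as the base before it. The first start of Mmp12 had GAGGAA on the opposite strand at -86 to -81. The second start of Mmp12 had TCATGTG on the opposite strand at -83 to -77 and TGANTCA at -44 to -38. Trem2 had GAGGAA on the opposite strand at -40 to -35 and TGANTCA at -9 to -3. No 2 of these matches overlapped, and the sequences of Gpnmb and Lgals3 held none of the 5 motifs. The G+C content was 66.0% for Lgals3, 56.0% for Trem2, 47.2% for Gpnmb, and 40% and 39.6% for the first and second start of Mmp12, against a median of 52.4% over all promoters. A match is a description of the letters only, and no binding was measured.

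The arrays differed in brightness between the diets. The signal at the 95th percentile of an array was 869.9 to 1023 in WD SW, against 403 to 548 on 4 of the CD arrays and 921 on the fifth, CD replicate 1, while the background signal lay between 77.93 and 88.14 on all 10 arrays. The diet differences from the fit across all probes were also computed with array brightness as a covariate and against CD replicate 1 alone. Only CD replicate 1 reached the brightness of the WD SW arrays, so both comparisons lean on that array. Brightness and diet cannot be told apart in this design. CD replicates 3 and 4, which had the highest levels of general macrophage markers among the CD arrays, were also left out together. Among hepatocyte markers, Apoa2 and Trf were bright, with means of 14.76 and 14.56 on the log2 scale in WD SW, against 13.66 and 13.12 in CD, whereas the Alb probe averaged 7.16 in WD SW and 9.09 in CD. The 5 arrays per diet limit the precision of every value, and the p-values reflect no more than the variation among these livers.

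Higher levels in WD SW livers were called for 3 members, the matrix protease Mmp12, the lysosomal glycoprotein Gpnmb and the galectin Lgals3, and 0 were called lower. The calls came from limma fitted to all 17364 tested probes at an adjusted p of 0.05, with each gene represented by its brightest tested probe. Of all 10184 genes so represented, 14.5% were called higher and 15.4% lower. A probe was tested if it was above background on at least 5 of the 10 arrays, which held for 7 of the 14 member probes and gave 5 represented members. The 5 WD SW arrays alone could meet this filter, as they did for Mmp12 and Gpnmb, so the share called among the 5 is no measure of the group. The same filter applied to every list below, where some genes also met it through the WD SW arrays. Without the filter, the median difference was 0.46 over the 8 members with a named probe and -0.04 over all 19057 genes. The members were chosen with earlier results of these data known, so this contrast is a description only. The remaining represented members, the tetraspanins Cd9 and Cd63, did not pass at their brightest probe. Trem2, Atp6v0d2 and Itgax were not tested.

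**Figure D1:**
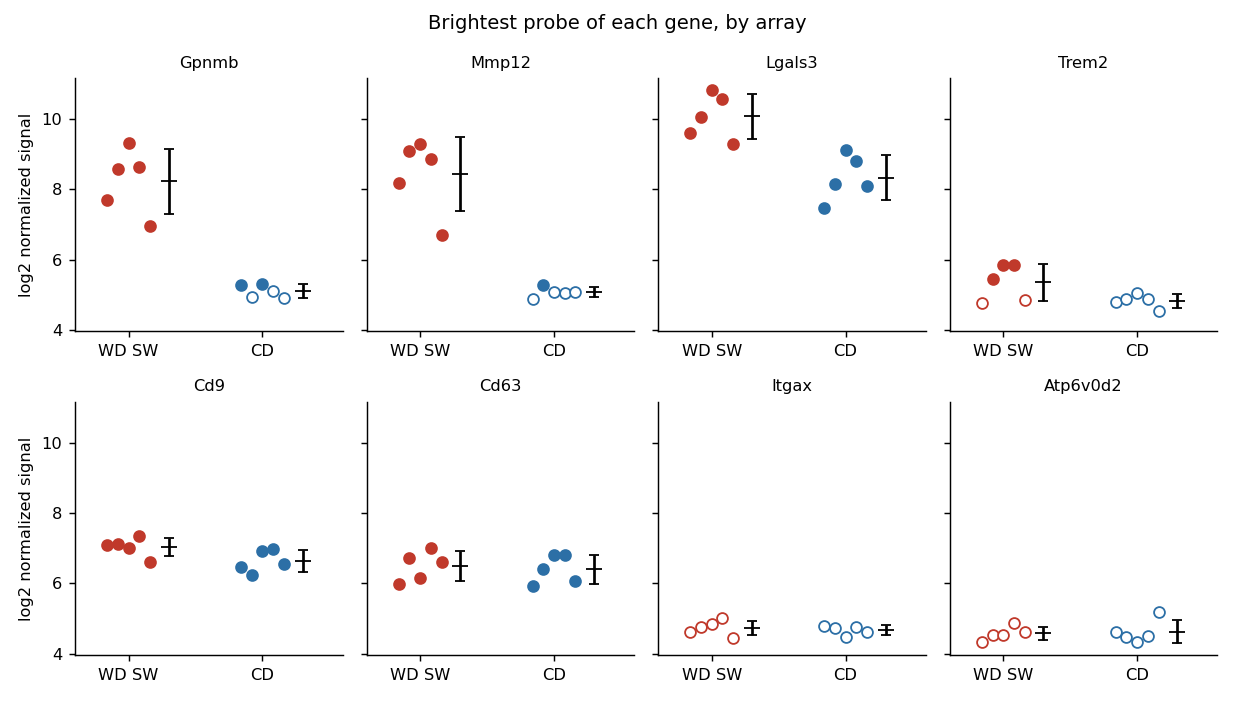
Log2 normalized signal (y axis) of the brightest probe of each of the 8 member genes with a named probe on the WD SW arrays (red, left) and the CD arrays (blue, right), with replicates 1 to 5 placed left to right in each diet. Filled points were above background and open points were not, bars give mean ± SD (n = 5), and all WD SW points lie above all CD points for Gpnmb, Mmp12 and Lgals3 only.

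Mmp12 encodes macrophage elastase, a secreted protease that degrades elastin. Its log2 signal was 8.17, 9.10, 9.28, 8.87 and 6.71 on WD SW replicates 1 to 5, against 4.88, 5.29, 5.07, 5.05 and 5.09 on CD replicates 1 to 5. All WD SW arrays were above background, against 1 of 5 CD arrays, and the groups did not overlap. WD SW replicate 5 was the lowest of its diet. The unnormalized signals were 472.2, 801.8, 799, 635.9 and 173.2 in WD SW, against 86.67 to 94.36 in CD. Mmp12 was 3.35 ± 0.37 higher on the log2 scale in WD SW (difference ± SE, n = 5 per diet, limma adjusted p = 2.5e-05), a 10.2-fold difference. The difference was 3.47 ± 0.63 with the brightness covariate (adjusted p = 0.00902) and 3.55 with CD replicate 1 alone (adjusted p = 0.0201). Most CD values lay at background, and the size of the difference moved with the treatment of the background. It was 2.19 without background correction (adjusted p = 0.000721) and 2.12 in the values as normalized by the authors (adjusted p = 0.000698).

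Gpnmb encodes a transmembrane glycoprotein of lysosomes and melanosomes. It had 4 probes, of which the brightest (probe A) was above background on 5 of 5 WD SW arrays and 2 of 5 CD arrays. This probe gave a log2 signal of 7.69, 8.57, 9.33, 8.62 and 6.95 on WD SW replicates 1 to 5, against 5.28, 4.93, 5.32, 5.11 and 4.91 on CD replicates 1 to 5. As with Mmp12, WD SW replicate 3 was the highest and WD SW replicate 5 the lowest of its diet, and the groups did not overlap. The difference was 3.12 ± 0.33 on the log2 scale (limma adjusted p = 1.95e-05), or 8.69-fold, and it was 3.09 ± 0.57 with the brightness covariate (adjusted p = 0.00935). It was 1.93 in the values as normalized by the authors (adjusted p = 0.000639). The other probes of Gpnmb were near background. Probe B was above background on 3 WD SW arrays and 0 CD arrays, with 4.89 to 5.29 in WD SW and 4.34 to 4.75 in CD. Its unnormalized signals overlapped, at 81.41 to 100.3 in WD SW and 77.27 to 86.38 in CD. In a fit of all probes without the filter, probe B differed by 0.46 ± 0.13 (adjusted p = 0.0254). Probes C and D were not above background on any array, and their diet differences of -0.18 and 0.26 did not pass (adjusted p = 0.537 and 0.289). The size of the Gpnmb difference thus rests on 1 of its 4 probes.

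Lgals3 encodes galectin 3, a carbohydrate-binding protein that macrophages secrete and that also marks damaged lysosomes inside cells. Unlike Mmp12 and Gpnmb, it was above background on all 10 arrays. Its log2 signal was 9.60, 10.06, 10.82, 10.57 and 9.29 on WD SW replicates 1 to 5, against 7.47, 8.15, 9.13, 8.81 and 8.09 on CD replicates 1 to 5. The highest CD array, CD replicate 3, lay just below the lowest WD SW array, so the groups did not overlap. The difference was 1.74 ± 0.32 (limma adjusted p = 0.00109), or 3.34-fold. Before normalization the signal was 819.5 to 2101 in WD SW, against 210.7 to 384.4 in CD. With the brightness covariate the difference was 2.71 ± 0.44 (adjusted p = 0.0062), and with CD replicate 1 alone it was 2.60. Both values lean on CD replicate 1, the only CD array as bright as WD SW and the lowest for Lgals3. Without CD replicates 3 and 4 the difference was 2.16 ± 0.31 (adjusted p = 0.000553). These were the highest CD arrays for Lgals3, so a larger difference without them was fixed in advance.

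Among all 10184 genes, the 5 arrays of WD SW lay above the 5 arrays of CD for 9.36% and below them for 10.3%. Leaving out each array in turn kept the calls of Mmp12, Gpnmb and Lgals3 in all 10 fits. The difference then ranged over 3.13 to 3.78 for Mmp12, 2.85 to 3.44 for Gpnmb and 1.52 to 1.94 for Lgals3. With the brightness covariate 2.17% of all genes were called higher and 1.95% lower, and with CD replicate 1 alone 4.52% higher and 4.01% lower.

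**Figure D2:**
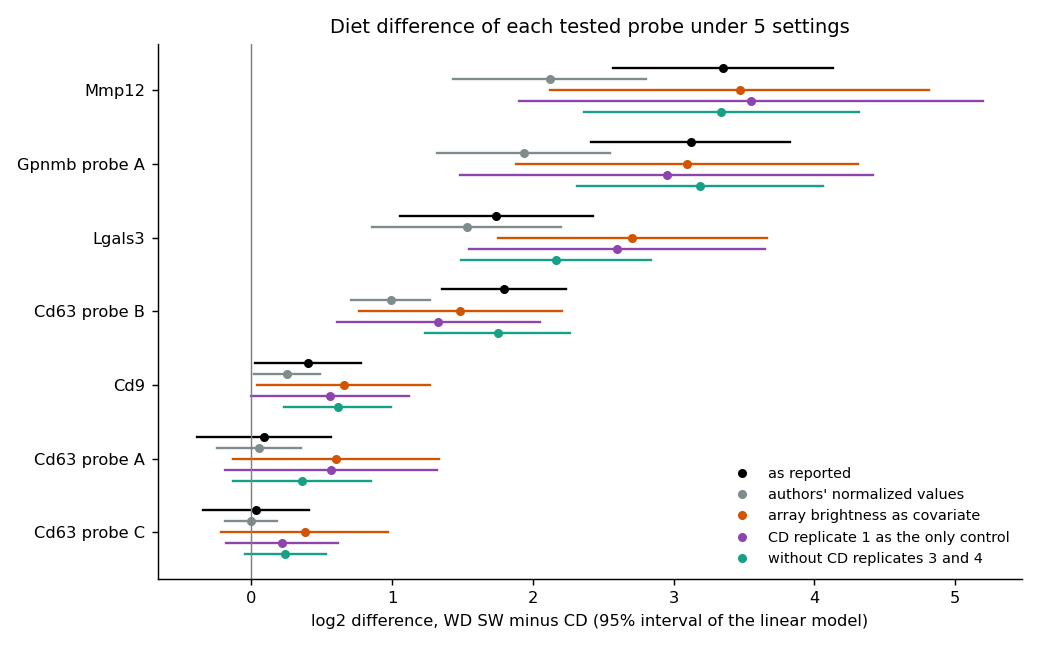
Difference between WD SW and CD livers on the log2 scale (x axis) for the 7 tested probes of the member genes, as reported (black) and under 4 other settings, with points for the estimate and lines for its 95% interval. The intervals of Mmp12, Gpnmb probe A, Lgals3 and Cd63 probe B lie above 0 under all 5 settings, while those of Cd63 probes A and C include 0 under all 5.

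Trem2, the lipid receptor, had 1 probe, and it was above background on WD SW replicates 2, 3 and 4 and on 0 CD arrays. Its log2 signal was 4.77, 5.44, 5.84, 5.85 and 4.87 on WD SW replicates 1 to 5, against 4.79, 4.87, 5.06, 4.89 and 4.53 on CD replicates 1 to 5. WD SW replicates 1 and 5 lay within the CD range, and the groups overlapped. The brightest of these signals was 1.56 times the background of its array. The mean was 5.35 ± 0.52 in WD SW and 4.83 ± 0.19 in CD (SD, n = 5 each). In the fit without a filter the difference was 0.52 ± 0.20 and did not pass (limma adjusted p = 0.111). Where 14.5% of all genes were called higher and 15.4% lower, 1 of 8 tested TREM2 signaling partners was called higher and 0 lower. That gene was Tyrobp, the TREM2 adaptor, which was 0.96 ± 0.21 higher in WD SW (adjusted p = 0.00337). Its difference was 1.22 with the brightness covariate, where it did not pass (adjusted p = 0.0592). Hcst, the related adaptor DAP10, differed by 0.04 (adjusted p = 0.867).

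The tetraspanins Cd9 and Cd63 are membrane proteins of exosomes and endosomes. Cd9 was above background on all arrays, with a log2 signal of 7.09, 7.12, 7.0, 7.33 and 6.61 on WD SW replicates 1 to 5, against 6.47, 6.24, 6.92, 6.98 and 6.54 on CD replicates 1 to 5. The groups overlapped through WD SW replicate 5, which was below CD replicates 3 and 4. The difference of 0.40 ± 0.18 did not pass (95% interval 0.02 to 0.77, limma adjusted p = 0.0973). This depended on a few arrays. Without WD SW replicate 5 the difference was 0.50 (adjusted p = 0.0484), and without CD replicates 3 and 4 it was 0.61 (adjusted p = 0.0224). WD SW replicate 5 was the lowest of its diet and CD replicates 3 and 4 the highest of theirs. A larger difference without them was therefore fixed in advance. With the brightness covariate the difference was 0.66 and did not pass (adjusted p = 0.205). The normalization also decided this call. The unnormalized signals of Cd9 were 165.6 to 262 in WD SW, against 113.2 to 156.6 in CD, and did not overlap. Most CD arrays were dimmer throughout, and the share of all genes separate before normalization is not given here. With arrays scaled to a common median instead, Cd9 was 1.19 higher (adjusted p = 0.000262). That scaling put the median of all genes at 0.48, with 4892 of all 10184 genes called higher and 151 lower.

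Cd63 had 3 tested probes, all annotated to the same RefSeq transcript, and they disagreed. Probe A, the brightest on average, gave 5.98, 6.72, 6.15, 7.01 and 6.6 on WD SW replicates 1 to 5, against 5.92, 6.41, 6.80, 6.81 and 6.06 on CD replicates 1 to 5. Probe B gave 6.88, 7.09, 7.74, 7.25 and 6.71 in WD SW, against 5.81, 5.34, 5.0, 5.54 and 5.01 in CD. The groups overlapped for probe A and were separate for probe B. Probe A differed by 0.09 ± 0.22 between the diets (95% interval -0.39 to 0.57, limma adjusted p = 0.791). Its unnormalized signals were 140.8 to 220.8 in WD SW, against 101.9 to 125 in CD, without overlap. Most CD arrays were dimmer throughout, and the share of all genes separate before normalization is not given here. With median scaling probe A was 0.83 higher (adjusted p = 0.00505), but 4892 of all 10184 genes were then called higher and 151 lower. Probe B was 1.80 ± 0.21 higher in WD SW (adjusted p = 3.45e-05), or 3.47-fold, where 17.3% of all tested probes were called higher and 14.1% lower. It stayed called with the brightness covariate at 1.49 ± 0.34 (adjusted p = 0.0255). In the values as normalized by the authors it was 0.99 (adjusted p = 0.000337). Probe C was above background on 5 WD SW arrays and 1 CD array and differed by 0.03 ± 0.18 (adjusted p = 0.901). The values of probe B minus those of probe A were 0.11 to 1.59 in WD SW, against -1.80 to -0.12 in CD. This difference between the probes was 1.71 larger in WD SW (exact two-sided permutation p = 0.00794, the smallest that 5 against 5 arrays allow), and for probe B against probe C it was 1.76 (exact permutation p = 0.00794). These 2 tests were chosen after the values were seen. Whether the probes lie in different exons or isoforms was not tested, and the count of members above uses probe A.

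**Figure D3:**
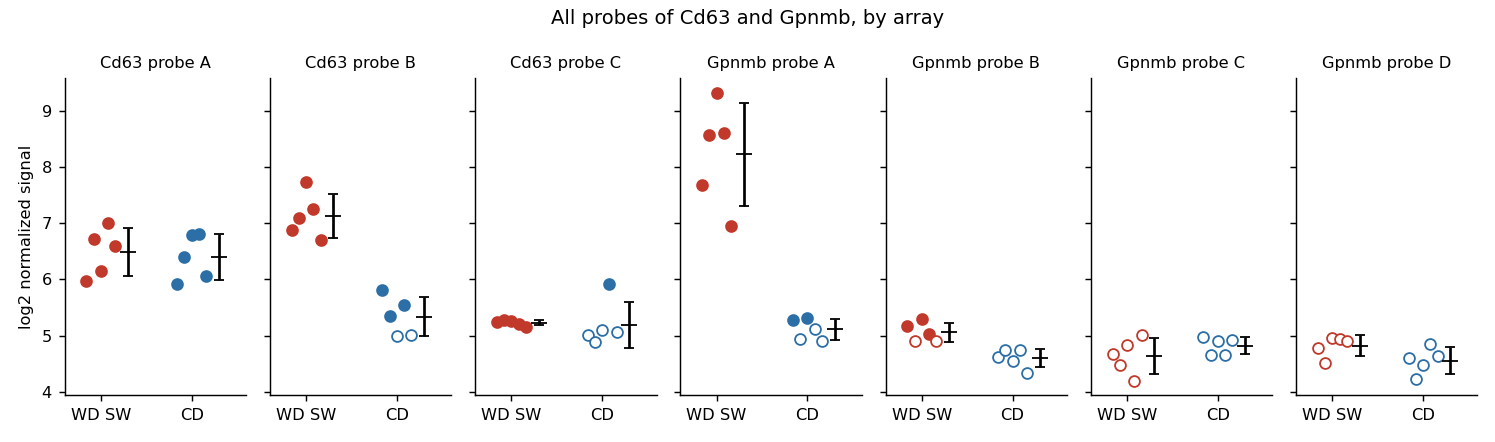
Log2 normalized signal (y axis) of the 3 probes of Cd63 and the 4 probes of Gpnmb on the WD SW arrays (red, left) and the CD arrays (blue, right), filled where above background, with mean ± SD (n = 5). Cd63 probe B and Gpnmb probes A and B lie higher on every WD SW array than on any CD array, and the remaining probes overlap.

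The last members with probes were not seen in either diet. Atp6v0d2, a V-ATPase subunit of osteoclasts and macrophages, had 1 probe, and Itgax, the integrin chain CD11c of dendritic cells and activated macrophages, had 2. None of these probes was above background on any array. The unnormalized signal of Atp6v0d2 was 73.7 to 83.75 in WD SW and 76.21 to 89.6 in CD, and that of the brighter Itgax probe was 74.17 to 88.1 in WD SW and 78.12 to 89.83 in CD. Such signals set only a limit of detection and do not show that the genes were silent. For the counts that follow, 14.5% of all genes were called higher and 15.4% lower. Around Atp6v0d2, 15 other V-ATPase subunits were tested, of which 1 was called higher (Atp6v0e, 0.73 ± 0.18, adjusted p = 0.0079) and 4 lower. Atp6v0b and Atp6v0a1, both of the membrane sector of the pump, were -0.89 ± 0.18 and -0.88 ± 0.14 (adjusted p = 0.00215 and 0.000434). Another gene called lower, Atp6v1c1 (-0.65), had another tested probe at 0.70. Probes of uncalled subunits disagreed too, as for Atp6v0d1, where they gave -0.04 to 1.55. Atp6v1c1 and Atp6v0d1 lie outside the rule for named genes. Of 5 tested genes of the beta2 integrin family and its ligands, 1 was called higher (Icam1, an adhesion ligand, 0.64 ± 0.23, adjusted p = 0.0476), and 0 were without background correction, with a larger normexp offset, without the filter or in the values as normalized by the authors. Of 8 tested receptors of osteopontin, the product of Spp1, Itga9 was called higher (0.49 ± 0.15, adjusted p = 0.0224) and Itgav lower (-0.48 ± 0.16, adjusted p = 0.0303), although another Itgav probe gave 0.22 and another Itga9 probe 0.04.

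General macrophage markers were also higher in WD SW livers, so the members were set against them. Of 14 tested markers, 8 were called higher and 0 lower, against 14.5% and 15.4% of all genes. Fcgr1, one of those called, met the filter through the WD SW arrays, as no CD array showed it above background. The median difference of the markers was 0.70, and the median of all genes was -0.05. The largest differences were those of the complement genes C1qb and C1qc, made largely by macrophages in liver. They were 1.69 ± 0.26 and 1.6 ± 0.33 higher (limma adjusted p = 0.000314 and 0.00238). Markers not called included C1qa (0.36), Adgre1 (0.50), Mpeg1 (0.25) and Cd14 (0.08), with adjusted p = 0.174, 0.116, 0.584 and 0.952. The summed signal of the 14 markers was 4040 to 9178 in WD SW and 2627 to 6197 in CD. Relative to the CD average, the mean of the markers was 0.71, 0.53, 1.24, 1.01 and 0.35 on WD SW replicates 1 to 5, against -0.41, -0.17, 0.37, 0.43 and -0.22 on CD replicates 1 to 5. WD SW replicate 3 was the highest array and WD SW replicate 5 the lowest of its diet here too, and CD replicates 3 and 4 were above WD SW replicate 5. With the brightness covariate 6 markers were called higher, with a median of 1.32.

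The question of whether a member moved by another amount than these markers was asked by subtracting the marker mean from the member on each array. Mmp12 exceeded the markers by 2.58, Gpnmb by 2.35 and Lgals3 by 0.97, each with all WD SW arrays above all CD arrays (exact two-sided permutation p = 0.00794 for each, 7 tested probes compared, not adjusted). By the same test, at exact permutation p under 0.05, 1.12% of all genes lay above the markers and 60% below. The median of all genes relative to the marker mean was -0.815. Mmp12 and Gpnmb met the filter through the WD SW arrays, with most CD values at background, so this share gives them no support. The size of the excess moved with the background. In the values as normalized by the authors Mmp12 exceeded the markers by 1.62, Gpnmb by 1.43 and Lgals3 by 1.02, and without background correction by 1.66, 1.47 and 1.05 (exact permutation p = 0.00794 for each). Cd63 probe A gave -0.68 relative to the markers (exact permutation p = 0.00794), whereas Cd63 probe B was 1.03 above them (exact permutation p = 0.0159). Cd63 probe C gave -0.73 (exact permutation p = 0.0238) and Cd9 gave -0.37 (exact permutation p = 0.0476). Since most genes lay below the markers, a negative value here is not particular to Cd9 or Cd63. When each array was left out in turn, the result held in all 10 tests for Mmp12, Gpnmb and Lgals3. For Cd63 probe A it was lost without CD replicate 2 (exact permutation p = 0.0556). For Cd9 it was lost in 8 of 10 tests, with exact permutation p up to 0.0952, and with median scaling it was -0.21 (exact permutation p = 0.262).

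**Figure D4:**
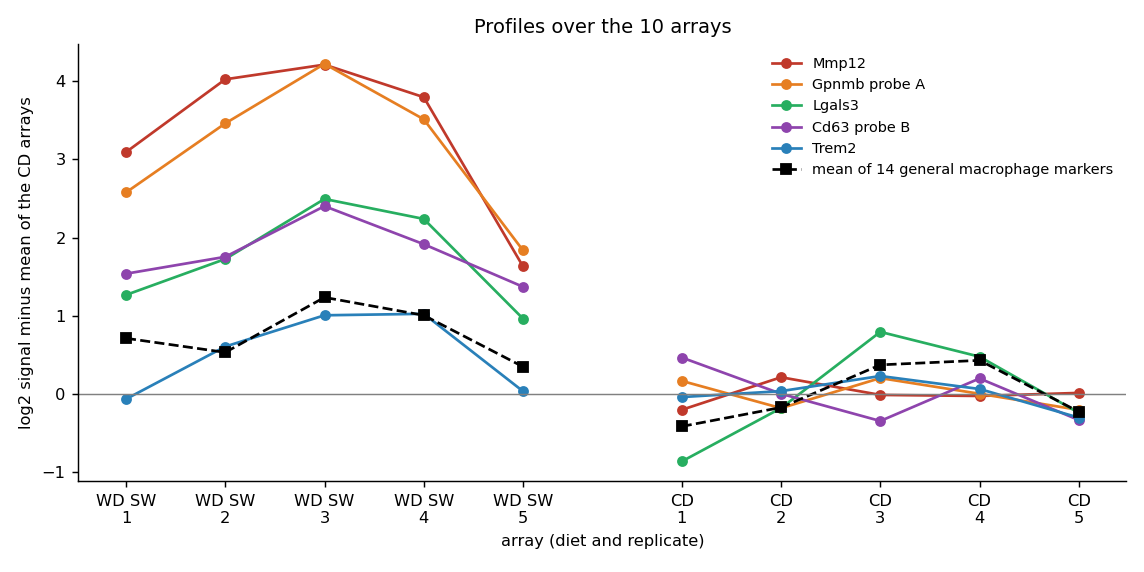
Log2 signal minus the mean of the CD arrays (y axis) on each array (x axis, WD SW replicates 1 to 5 and then CD replicates 1 to 5) for Mmp12, Gpnmb probe A, Lgals3, Cd63 probe B and Trem2 and for the mean of 14 general macrophage markers (dashed), where the lines only join the points of 1 probe. Among the WD SW arrays, replicates 1 and 5 are the lowest for each of the 5 member probes, and replicate 5 is also the lowest for the macrophage markers.

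Other genes of lipid-associated macrophages moved in both directions. Of 22 tested genes of this list, 11 were called higher and 1 lower, against 14.5% and 15.4% of all genes. The median difference of the list was 0.64. Plin2, the lipid droplet coat protein that hepatocytes also make, was 2.55 ± 0.29 higher (limma adjusted p = 2.87e-05), and Lgals1, galectin 1, was 2.20 ± 0.32 higher (adjusted p = 0.000189). With the brightness covariate these were 1.33 (adjusted p = 0.0178) and 1.24 (adjusted p = 0.117). Fabp5, a fatty acid-binding protein, was the gene called lower, at -1.97 ± 0.33 (adjusted p = 0.000595), and it was -0.65 with the covariate (adjusted p = 0.33). Lpl, the lipoprotein lipase, differed by 0.95 and did not pass (adjusted p = 0.208). The lysosomal proteases Ctsb and Ctsd differed by 0.18 and -0.23 (adjusted p = 0.385 and 0.365). Clec7a, the beta-glucan receptor dectin 1, was 2.07 ± 0.22 higher (adjusted p = 1.98e-05) and 2.21 with the covariate (adjusted p = 0.00664). Lpl, Ctsb, Ctsd and Clec7a were named after their values were seen. With the covariate 6 genes of the list were called higher and 0 lower.

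Gene families of the members were called in part. Over all genes, 14.5% were called higher and 15.4% lower, and the families were not tested against these shares. Among 11 other tetraspanins, 3 were called higher and 3 lower, with Cd82 at 1.57 ± 0.25 and the leukocyte tetraspanin Cd53 at 0.96 ± 0.29 (adjusted p = 0.000353 and 0.0196). Tspan33 and Tspan4 were -0.86 ± 0.17 and -0.64 ± 0.17 (adjusted p = 0.00143 and 0.00884). Among 9 other matrix metalloproteinases and their inhibitors, 2 were called higher and 1 lower. The collagenase Mmp13 was 2.03 ± 0.31 higher (adjusted p = 0.000293), although its other tested probe gave -0.14. Mmp13 was above background on 5 WD SW arrays and 1 CD array, so it met the filter through the WD SW arrays. The inhibitor Timp2 was 0.58 ± 0.15 higher (adjusted p = 0.00843), and Mmp24 was -0.46 ± 0.16 (adjusted p = 0.0454). Of 4 other tested galectin genes and ligands, 2 were called higher, Lgals9 at 0.73 ± 0.24 and Lgals3bp, which encodes a ligand of galectin 3, at 0.63 ± 0.21 (adjusted p = 0.0334 and 0.0329). Of 6 tested transcriptional regulators, Pparg, the lipid-sensing nuclear receptor, was 1.76 ± 0.29 higher and Bhlhe40 was 0.84 ± 0.25 higher (adjusted p = 0.00044 and 0.021). Pparg differed by 0.78 with the brightness covariate and did not pass (adjusted p = 0.235). With this covariate 1 tetraspanin was called higher (Cd53) and 1 lower (Tspan33), and Mmp13 was the 1 metalloproteinase called, while 0 were called among the galectins, regulators, V-ATPase subunits, integrins and osteopontin receptors.

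Markers of other cells in the liver were read on the same arrays, where 14.5% of all genes were called higher and 15.4% lower. Of 8 tested markers of resident Kupffer cells, 2 were called higher (Folr2, 0.78 ± 0.22, and Slc40a1, 0.69 ± 0.21, adjusted p = 0.0142 and 0.0192) and 2 lower. The scavenger receptor Cd163 was -2.08 ± 0.29 and Il18bp was -0.75 ± 0.20 (adjusted p = 0.000153 and 0.0109). The other tested markers of this list did not pass. Clec4f and Timd4 differed by -0.08 and -0.19 (adjusted p = 0.767 and 0.322), and Vsig4 and Fcna by 0.60 and 0.63 (adjusted p = 0.119 and 0.0641). These uncalled genes lie outside the rule for named genes. The summed signal of these 8 markers was 8791 to 10070 in WD SW and 5062 to 8111 in CD, and most of it was Slc40a1. Without Slc40a1 it was 1805 to 2655 in WD SW and 1391 to 2994 in CD, and the groups overlapped. Of 4 tested monocyte genes, Cx3cr1 was called higher, at least 1.12-fold, since no CD array showed it above background (adjusted p = 0.0134). Ly6c2 and Ccr2 of that list were not tested.

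The shares of 14.5% higher and 15.4% lower over all genes apply to the next counts too. Among 5 tested dendritic cell markers, 0 were called higher and 1 lower (Siglech, -0.50 ± 0.18, adjusted p = 0.0449). Of 4 tested neutrophil markers 0 were called, and the brightest, S100a9, differed by -1.02 ± 0.44 (adjusted p = 0.0929). Of 4 tested lymphocyte markers 0 were called, with Cd8b1 at 0.40 ± 0.21 (adjusted p = 0.15). The tested markers were 5 of 9 annotated for dendritic cells, 4 of 9 for neutrophils and 4 of 11 for lymphocytes. Of 11 stellate cell and fibroblast markers, 4 were called higher and 0 lower, led by Col1a1 (0.64 ± 0.22) and Col3a1 (0.60 ± 0.21, adjusted p = 0.0379 and 0.0452). Col1a1 met the filter through the WD SW arrays, as it was above background on only 1 CD array. The 4 stellate cell calls became 1 without background correction, with a larger normexp offset and in the authors' values, and 0 without the filter. Of 10 sinusoidal endothelial markers, 3 were called higher, among them Lyve1 (1.32 ± 0.35) and Fcgr2b (1.15 ± 0.17, adjusted p = 0.0104 and 0.00027), and 1 lower (Kdr, -0.50 ± 0.16, adjusted p = 0.0247). Other tested probes of Fcgr2b reached down to -0.18. Of 10 hepatocyte markers, 3 were called higher, led by Trf (1.43 ± 0.23) and Apoa2 (1.10 ± 0.24, adjusted p = 0.000415 and 0.00309). The 3 called lower included Alb (-1.93 ± 0.22) and Tat (-0.54 ± 0.13, adjusted p = 3.61e-05 and 0.00626). The Alb probe was far dimmer than those of Trf and Apoa2, with means of 7.16 in WD SW and 9.09 in CD. Whether this probe reads Alb RNA well was not tested. Of 2 tested cholangiocyte markers, Sox9 was called lower (-2.09 ± 0.23, adjusted p = 2.43e-05), with -0.37 at its other tested probe, while Krt19, Krt7 and Epcam were not tested. With the brightness covariate, 1 endothelial and 1 hepatocyte marker were called higher, 1 hepatocyte and 1 cholangiocyte marker were called lower, and 0 of the Kupffer cell, monocyte, dendritic cell, neutrophil, lymphocyte and stellate cell markers were called. The part of cell composition in the members' differences was not tested.

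**Figure D5:**
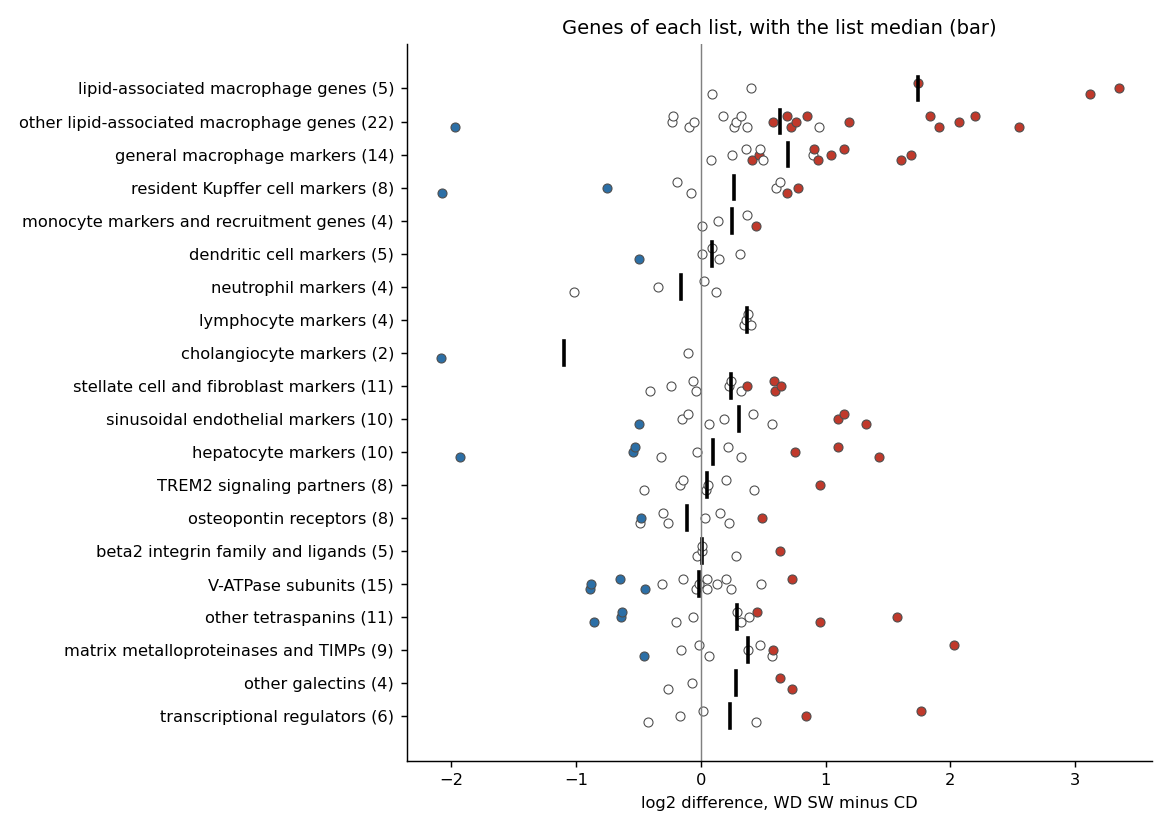
Difference between WD SW and CD livers on the log2 scale (x axis) of each tested gene by list, with the number tested in brackets, red for genes called higher, blue for genes called lower and open for genes not called, and a bar at the list median. Each gene is shown at its brightest tested probe. Mmp12 at 3.35 and Gpnmb at 3.12 lie to the right of every gene in the other lists, of which Plin2 at 2.55 is the farthest.

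The genes whose profile was most like the mean profile of the 5 represented members were sought among 10179 other genes, by the root mean square difference over the 10 arrays after subtracting the CD mean. Lyz1, a lysozyme of myeloid and Paneth cells, was the closest at 0.264, followed by H2-M2 at 0.297, Tmem86a at 0.337, Nipsnap3b at 0.348 and Ubd at 0.357. Ear3, Capn2 and Selenof followed at 0.372, 0.392 and 0.397. Lyz1 had a log2 signal of 11.09 to 12.48 in WD SW, against 9.60 to 10.51 in CD. Ear3, of the eosinophil-associated ribonucleases, had 7.32 to 8.5 in WD SW, against 5.66 to 6.38 in CD. Lyz1 has a close paralog in Lyz2, a general macrophage marker here, so its values are uncertain to the extent that probes cannot tell the pair apart, which was not tested. The 2 tested Lyz2 probes differed by 0.90 and 2.60 between the diets, and the probe at 0.90 entered the marker mean. Lyz1 and the others listed were chosen for their likeness, which is a description over 10 arrays of 2 diets.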

How the data were processed

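Liver RNA of 10 mice was profiled on Illumina mouse bead arrays, and each array was assigned to its diet by the labels. The authors deposited 2 tables of linear fluorescence intensity per probe, one not normalized, which was used for all reported values, and one normalized by a method not given in the sources used here, which served as an alternative. Detection p-values were not used here. The background of each array was the mode of its log2 signals (bandwidth 0.02), with the SD of the signals below it, and a probe was above background at a one-sided p of 0.05. As a check, 6% of 1501 olfactory and vomeronasal receptor probes were tested, against 38.3% of all probes.

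Signals were corrected by normexp (offset 16), quantile normalized and log2 transformed, and probes above background on at least 5 arrays were tested (limma 3.58.1, R 4.3.3) as WD SW minus CD, with Benjamini-Hochberg adjustment over all tested probes and a threshold of 0.05. Quantile normalization hides a shift shared by most genes. Summed signals are on the linear normalized scale. Where a gene was at background throughout a diet, the bound sets the brighter mean against the higher of the lowest detected and the own signal. Per the platform annotation, 34885 probes had 1 symbol, 18 several and 10378 none. Of those with 1 symbol, 34807 matched RefSeq by identifier and 0 symbols changed. The brightest tested probe stood for a gene. Cd63 probes A, B and C are ILMN_3128907, ILMN_2653617 and ILMN_3052430, and Gpnmb probes A to D are ILMN_2648669, ILMN_2918882, ILMN_1236420 and ILMN_2614655. The procedure was tested on simulated data.

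The planned moderated model of members relative to macrophage markers gave the same standard error, 0.311, for every probe, and was replaced, after the data were seen, by an exact permutation test of the diet labels for each member. The share of all genes by that test and the Kupffer cell sum without Slc40a1 were also added after the data were seen. The members and lists were chosen with earlier results of these data known. Named genes were all members, up to 2 genes called higher and 2 lower per list or otherwise the brightest, and the 8 most similar profiles. Alternatives covered background correction, normalization, the filter, the probe, the variance model, array weights, brightness and left-out arrays. Replicate numbers follow the order of listing and only name arrays, and the number in the sample titles, of unstated meaning, was used only as a random block. That number was 5 for WD SW replicates 1 and 2 and 7 for WD SW replicates 3 to 5. It was 12 for CD replicates 1 and 2, 13 for CD replicates 3 and 4, and 14 for CD replicate 5. The diets thus shared no number, and whether arrays with the same number were independent is not known. Correlations within a diet were 0.958 to 0.988, so no array was an exact copy of another. Such values cannot tell a repeat array of the same RNA from a separate liver.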

Additional observations from a re-analysis of the deposited data

Results flagged for a closer look

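One value among 28 groups of 5 arrays (14 member probes in 2 diets) stood apart from the others of its diet. Cd63 probe C gave a log2 signal of 5.91 on CD replicate 4, whereas the remaining CD arrays gave 4.89 to 5.10, and its gap to the nearest of them was 0.801 of the whole range, above the critical value of 0.71. It was the only CD array on which this probe was above background, with an unnormalized signal of 98.34 against 87.05 to 94.67. Chance alone would mark about 5% of such groups. Without this array the diet difference of probe C was 0.21 and did not pass.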

How the results depend on the processing

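Over 25 alternatives, no member called higher changed sign. The uncalled Cd63 probe A, at 0.09, ranged over -0.039 to 0.22 when 1 array was left out, below 0 without WD SW replicate 4 and without CD replicate 1 (-0.029). The uncalled probe C, at 0.03, reached -0.04 without CD replicate 2. Mmp12, Gpnmb and Lgals3 stayed called in each in which they were tested. Median scaling in place of quantile normalization put the median of all genes at 0.48 in place of -0.05, with 4892 genes called higher and 151 lower and 5 members called higher (Cd9 1.19, Cd63 probe A 0.83), and left 1 member below the macrophage markers. Detection on all 10 arrays removed Mmp12 and Gpnmb from the test, so that 976 genes and 1 member were called higher and 1 member exceeded the markers. Averaging the probes of a gene gave 4 members called higher in place of 3. It left 1 member below the markers, as Cd63, at -0.20, did not pass. Array brightness as covariate gave 221 genes higher and 199 lower, and CD replicate 1 alone as control, with its spread borrowed from the WD SW arrays, gave 460 and 408. Members called higher remained at 3 in both. Without CD replicates 3 and 4, members called higher numbered 4, and 0 members lay below the markers (exact permutation p = 0.107 for both Cd9 and Cd63 probe A). Leaving out 1 array at a time gave 1196 to 1628 genes higher, 1177 to 1760 lower, 3 to 4 members higher, 0 lower, 3 above the markers and 1 to 2 below. In the reported comparison, 1.12% of all genes lay above the markers and 60% below, so a member below them is not particular. The comparison with the markers was not run with the covariate, weights, trend, block or single control. No paired analysis was possible because the labels share no replicate numbers between the diets. The array signals near background limit what can be said of Trem2, Atp6v0d2, Itgax and the dim Gpnmb probes.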
